A study of Mus musculus with 5 samples.

Results

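Claudins are the membrane proteins that form the strands of tight junctions, the seals between neighbouring epithelial or endothelial cells. Their extracellular loops meet across the gap between cells, and the mixture of claudins in a junction sets how tightly it closes and which ions pass. Barrier-forming claudins restrict this path, while others, among them claudin-10, form channels for ions. In the epidermis functional tight junctions lie in the granular layer, where *Cldn1* is needed to hold water in the body.

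The 10 genes described here, of 18193 genes that the array annotation names, are *Cldn1*, *Cldn3*, *Cldn4*, *Cldn5*, *Cldn7*, *Cldn8*, *Cldn10*, *Cldn11*, *Cldn12* and *Cldn23*. The family was chosen by the measured rise of *Cldn10* in *Clock* mutant skin, and its other members were taken along with it. All 17 probe sets that the array annotation maps to a single one of these genes were used, of 45037 non-control probe sets in the table. Back skin was taken at postnatal day (P) 23 from 2 *Clock* mutants and from 3 wild-type (WT) littermates, with 1 array per mouse. The *Clock* mutation lowers the transcriptional activity of CLOCK, the partner of BMAL1, and the strain background was C57BL/6J. The study's hair cycle staging writes its *Clock* mutants as *Cl/Cl*, that is homozygous, while the array labels name the genotype without zygosity. The only male among the 5 mice was *Clock* mutant replicate 1. The paper describes its *Clock* mutant skin of about this age as telogen, the resting phase of the hair cycle. Its WT time course, however, classes P23 as early anagen, the start of hair growth. The paper also reports delayed progression into the first anagen in *Clock* mutants. Markers of the growing hair, given below, had a higher median in each of these mutants than in any WT mouse. The hair stage of the 5 mice was therefore not taken from the paper's classes. The mutation is present in every tissue of the animal. Whole skin was profiled, so that no cell type can be assigned to a difference.

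Values are MAS5 intensities, in which each array is scaled to the same trimmed mean, and probe sets differ in their own brightness, so that levels are compared between arrays and never between genes. Differences are log2, *Clock* mutant minus WT, from limma, with a standard error (SE) or a 95% interval. Array medians lay between 106.0 and 118.1. Of the 17 probe sets, 13 in 8 genes were bright enough to be tested, above an overall intensity of 56.7. *Cldn7*, *Cldn11* and a further pair of *Cldn1* probe sets fell under that limit. The member just inside was a *Cldn3* probe set with an average intensity of 105.0, and the one just outside was that of *Cldn11* with 49.5. Over all 27022 tested probe sets, 24 passed an adjusted p of 0.05 (0.0888%). The same count was 0 without WT replicate 2 or WT replicate 3, and 239 without *Clock* mutant replicate 2. Among the claudins 1 of 13 passed, and this was *Cldn10*, whose difference chose the family, so nothing is read from that count.

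RefSeq gives *Cldn10* 2 transcription starts on chromosome 14, and the sequence before each is shown because *Cldn10* is the member on which the choice rests. The windows run 5′ to 3′ up to the base before the start on the plus strand of GRCm38.p6. Capitals mark matches to the clock-related motifs named after the sequences.
*Cldn10*, first start, chr14:118787621-118787870: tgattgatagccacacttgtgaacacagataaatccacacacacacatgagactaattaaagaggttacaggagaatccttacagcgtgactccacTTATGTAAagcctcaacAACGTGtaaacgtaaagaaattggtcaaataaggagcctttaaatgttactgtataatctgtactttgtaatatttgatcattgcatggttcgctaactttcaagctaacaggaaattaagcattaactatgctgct
*Cldn10*, second start, chr14:118854700-118854949: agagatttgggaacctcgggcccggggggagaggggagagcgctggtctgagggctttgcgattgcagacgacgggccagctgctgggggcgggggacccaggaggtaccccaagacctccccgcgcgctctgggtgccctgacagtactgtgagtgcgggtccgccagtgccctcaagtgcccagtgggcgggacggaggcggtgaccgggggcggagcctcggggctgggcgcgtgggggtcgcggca

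The first window held a D-box, TTATGTAA, beginning 154 bases before the start, and an E′-box, CACGTT, read on the minus strand and beginning 137 bases before it. The second window held neither. The E-box and its variant the E′-box are the letters that CLOCK and BMAL1 bind in clock genes, and the D-box is bound by DBP and its relatives. The sequence before the first start was 36% G and C and that before the second 72.4%, against a median of 52.4% over all windows. Windows of 300 bases, 250 before and 50 after a start, were searched on both strands, and no motif searched contains another. A D-box, TTATGTAA or TTACGTAA, was present in 1.06% of 32851 windows of all genes, an E′-box in 4.68% and the E-box CACGTG in 7.15%. Of the 12 windows that RefSeq gives for 8 of the members, 0 held the E-box, and the D-box and E′-box occurred in that 1 *Cldn10* window alone. The half-site AGGTCA, found in elements bound by ROR and REV-ERB receptors, was present in 3 of the 12 windows, 1 of *Cldn4* and 2 of *Cldn7*, against 16.3% of all windows. The grainyhead-like element AACCGGTT, bound by factors that act in barrier epithelia, was present in 0 of the 12 and in 0.146% of all windows. These matches are descriptions of letters, and binding was not measured.

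*Cldn10* encodes a claudin that forms ion channels in the junctions of secretory and renal epithelia, in variants that start from different first exons. Its only probe set had intensities of 1573 and 1426 in *Clock* mutant replicates 1 and 2, against 728.2, 726.9 and 676.6 in WT replicates 1, 2 and 3. Both mutant values lay above every WT value, and neither genotype's replicates were spread widely. The means were 1500.0 ± 104 in *Clock* mutant skin (SD, n = 2) and 711 ± 29.4 in WT skin (SD, n = 3), which is a 2.11-fold ratio or a log2 difference of 1.08 (SE 0.101). No p is given, since this value led to the choice of the family. Without *Clock* mutant replicate 1, which leaves females only, the difference was 1.01, and over 9 alternatives it ranged from 1.01 to 1.17. The suffix of this probe set marks probes that several transcripts share, and which *Cldn10* start the signal came from was not tested. In whole skin, more cells of a type and more RNA per cell cannot be told apart, for *Cldn10* and for every gene below.

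Secretory gland cells are one site where *Cldn10* is known. Markers of gland luminal epithelium were at a low level on every array. The summed intensity of all 8 such genes was 444 and 488 in *Clock* mutant skin, against 451 to 538 in WT skin, and 4 of them (*Krt18*, *Ltf*, *Csn3* and *Aqp5*) lay under the intensity limit. The 4 measured sebaceous gland markers had sums of 20384 and 20076 in *Clock* mutant skin, against 20180 to 22195 in WT skin. Most of that sum was *Scd1*, a fatty acid desaturase, with 18371 and 17808 in *Clock* mutant skin, against 18189, 18214 and 19737 in WT skin. Every gene of both lists overlapped between genotypes, and the part of gland content in the *Cldn10* values was not tested.

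The genes whose profile over the 5 arrays lay nearest to that of *Cldn10*, by Euclidean distance of log2 intensities set against the WT mean, were *Gjb6* (distance 0.30), *Myef2* (0.31), *Casq2* (0.33), *Ddc* (0.38) and *Eln* (0.39). *Gjb6* encodes connexin 30, a gap junction protein of the epidermis, and had intensities of 166.4 and 116.3 in *Clock* mutant skin, against 68.5, 75.0 and 62.2 in WT skin. *Casq2*, a calcium store protein of muscle, and *Eln*, elastin, are products of other cell types than those of epithelial junctions. *Myef2* encodes a nucleic acid-binding protein and *Ddc* the decarboxylase that makes dopamine and serotonin. A profile close to that of *Cldn10* has to be higher in both mutants, so these genes share the contrast by construction.

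**Figure D1:**
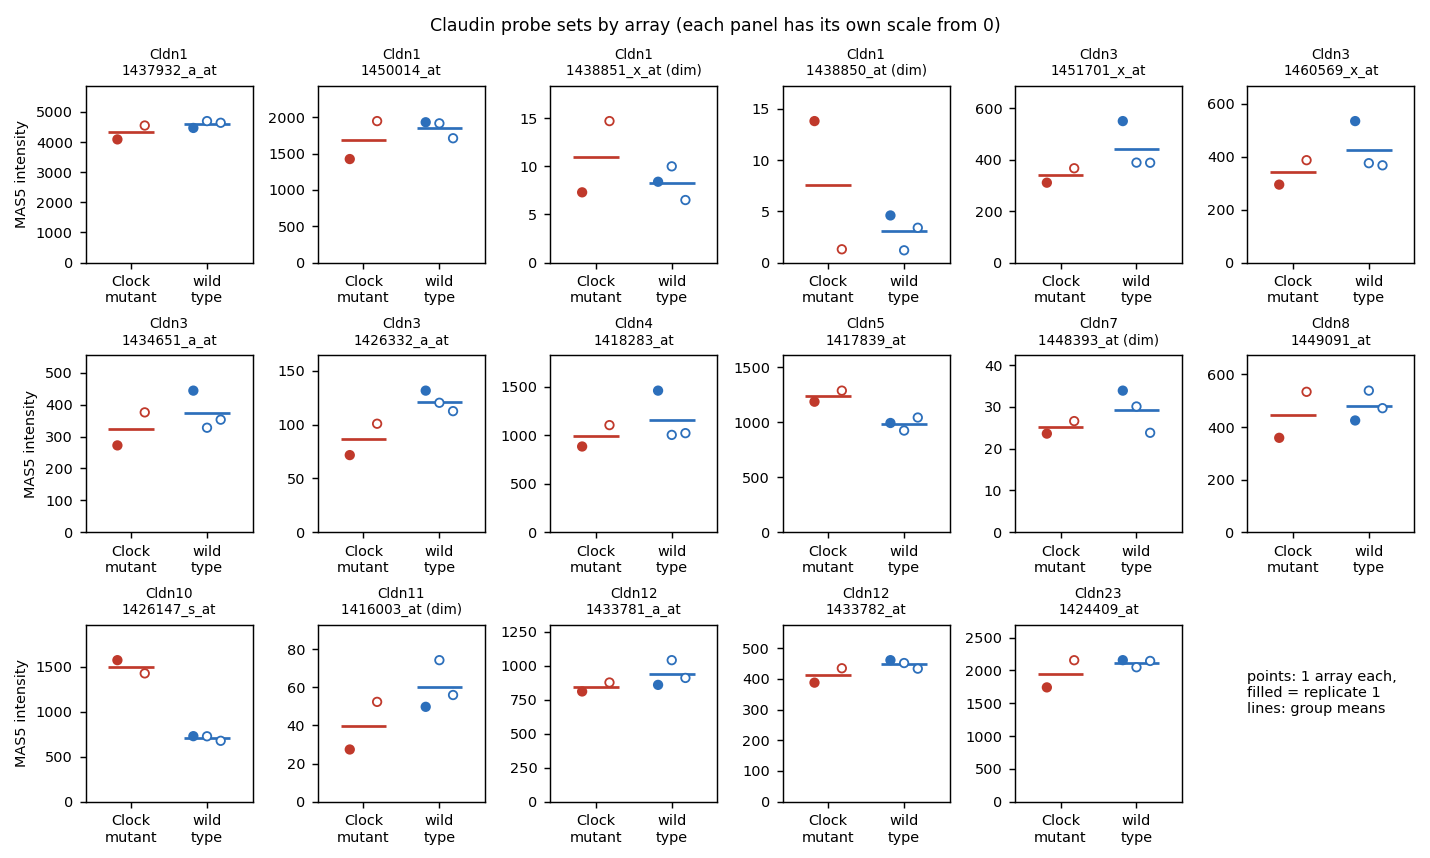
MAS5 intensity (vertical axis, linear, from 0, with a scale of its own in each panel) of the 17 claudin probe sets on each array, *Clock* mutant in red at left and wild type in blue at right; each point is 1 array, filled points are replicate 1, lines are group means, and probe sets under the intensity limit are marked dim. At *Cldn10* both mutant points lie at 1426 or above and the wild-type points at 728.2 or below, and in most other panels the filled mutant point is the lowest of the 5.

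*Cldn5*, the chief claudin of endothelial cells and part of the blood-brain barrier, was the other member with a positive difference. Its intensities were 1188 and 1289 in *Clock* mutant skin, against 994.2, 925.3 and 1044 in WT skin. The groups did not overlap, as for 12.8% of all tested probe sets in this direction. The log2 difference was 0.33 (95% interval 0.10 to 0.56), and it did not pass the adjusted threshold (adjusted p = 0.341 with limma). This was the smallest adjusted p among the 12 tested claudin probe sets besides that of *Cldn10*, of which 0 passed and 1 had an unadjusted p under 0.05. Without *Clock* mutant replicate 1 *Cldn5* was at 0.39, and over its alternatives it ranged from 0.27 to 0.42.

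Markers of endothelium differed in direction from gene to gene. Each was higher in *Clock* mutant replicate 1 than in replicate 2, and *Cldn5* was lower. Some of these gaps were small, 0.02 on the log2 scale for *Emcn* and 0.12 for *Cldn5*, and nothing is read from the order of 2 mice. The summed intensity of 7 such genes was 5792 and 5426 in *Clock* mutant skin, against 5091 to 5246 in WT skin. Of the 7, 5 had a positive difference, 2 a negative one and 0 passed, with a median of 0.04, against 0.02 over all genes at their brightest probe set. *Tek*, the angiopoietin receptor, was at 951.2 and 906.2 in *Clock* mutant skin, against 713.7, 667.6 and 709.6 in WT skin, while *Cdh5*, the cadherin of endothelial junctions, was at 806.1 and 773.8 in *Clock* mutant skin, against 743.4, 720.6 and 841.8 in WT skin. *Emcn*, endomucin, was lower without overlap, with 530.4 and 522.2 in *Clock* mutant skin, against 581.5, 545.9 and 566.4 in WT skin. Of the 7 genes 3 were higher without overlap, 1 was lower without overlap and 3 overlapped. Over all tested probe sets 12.8% were higher and 15.1% lower without overlap. The sum, which the brightest genes carry, did not overlap between genotypes, whereas the median over the 7 genes did, at 0.14 and 0.01 relative to the WT mean in *Clock* mutant skin, against 0.03, -0.05 and 0.03 in WT skin. The part of endothelial content in the *Cldn5* values was not tested.

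The barrier claudins of the epidermis had small negative differences with intervals that included 0. *Cldn1*, without which newborn mice lose water through the skin, had intensities of 4087 and 4547 at its brightest probe set in *Clock* mutant skin, against 4467, 4694 and 4638 in WT skin. The genotypes overlapped at this probe set, with a log2 difference of -0.09 (95% interval -0.27 to 0.08). At the other bright *Cldn1* probe set the values were 1424 and 1946 in *Clock* mutant skin, against 1930, 1915 and 1710 in WT skin. There the 2 mutant mice were the lowest and the highest of all 5, and the difference of -0.15 (95% interval -0.45 to 0.15) became 0.07 without *Clock* mutant replicate 1. The further *Cldn1* probe sets had intensities of at most 14.7 on any array and carry no usable level.

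*Cldn4*, a barrier claudin of the granular layer, had intensities of 884.2 and 1105 in *Clock* mutant skin, against 1461, 1004 and 1022 in WT skin. Mutant replicate 1 was the lowest and WT replicate 1 the highest, and the groups overlapped (log2 difference -0.21, 95% interval -0.60 to 0.18). *Cldn3*, a sealing claudin of many epithelia and the direct neighbour of *Cldn4* in the RefSeq gene table, was read by 4 probe sets with differences of -0.37, -0.31, -0.22 and -0.51. At the brightest the intensities were 311.1 and 367.2 in *Clock* mutant skin, against 550.8, 389.2 and 388.6 in WT skin. At the dimmest they were 71.7 and 100.9 in *Clock* mutant skin, against 131.7, 120.4 and 112.6 in WT skin. The groups did not overlap at these *Cldn3* probe sets and overlapped at the other two. All 4 intervals included 0, the highest bound being 0.21, and the suffix of the 2 brightest marks probes that can bind unrelated transcripts. *Cldn3* and *Cldn4* shared their order at the ends, with *Clock* mutant replicate 1 lowest and WT replicate 1 highest on every one of these probe sets. Besides *Cldn10*, 2 of 12 claudin probe sets, both of *Cldn3*, were lower without overlap, against 15.1% of all tested probe sets.

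The spread among WT mice differed between members. The coefficient of variation over the 3 WT arrays was 2.57% for the brightest *Cldn1* probe set, 2.79% for *Cldn23* and 4.14% for *Cldn10*, and 22.3% for *Cldn4* and 21.1% for the brightest *Cldn3* probe set. At *Cldn4* and at that *Cldn3* probe set WT replicate 1 stood above the other two. A difference between genotypes of the size seen for *Cldn4* was within the range of the WT mice, 0.54 on the log2 scale.

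*Cldn8*, which partners *Cldn4* in the kidney collecting duct, had intensities of 359.0 and 534.1 in *Clock* mutant skin, against 425.0, 538.6 and 471.8 in WT skin. The gap between the 2 mutant mice, 0.57 on the log2 scale, was larger than the difference of -0.12 (95% interval -0.54 to 0.29), which was 0.17 without *Clock* mutant replicate 1. *Cldn12*, an unusual claudin without the tail that binds scaffold proteins, had intensities of 810.0 and 875.8 in *Clock* mutant skin, against 858.4, 1040.0 and 909.4 in WT skin. Its second probe set had 387.9 and 434.8 in *Clock* mutant skin, against 461.2, 451.8 and 433.5 in WT skin. Both probe sets overlapped between genotypes and gave nearly the same difference, -0.15 (95% interval -0.41 to 0.11) and -0.13 (95% interval -0.41 to 0.15). *Cldn23*, known from differentiated intestinal epithelium, had intensities of 1742 and 2156 in *Clock* mutant skin, against 2157, 2049 and 2145 in WT skin. *Clock* mutant replicate 2 lay next to the highest WT value and replicate 1 below all WT values, and the difference of -0.13 (95% interval -0.36 to 0.11) was 0.03 without that low mouse.

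*Cldn7*, which binds EpCAM at the lateral membrane of epithelial cells, and *Cldn11*, of myelin in the central nervous system and of Sertoli cells, were too dim to test. *Cldn7* had intensities of 23.6 and 26.6 in *Clock* mutant skin, against 33.9, 30.1 and 23.8 in WT skin. *Cldn11* had 27.4 and 52.4 in *Clock* mutant skin, against 49.8, 74.3 and 56.0 in WT skin. At both genes the groups overlapped, and at this brightness no difference could be measured. Whether the mRNA was absent cannot be told from these values.

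**Figure D2:**
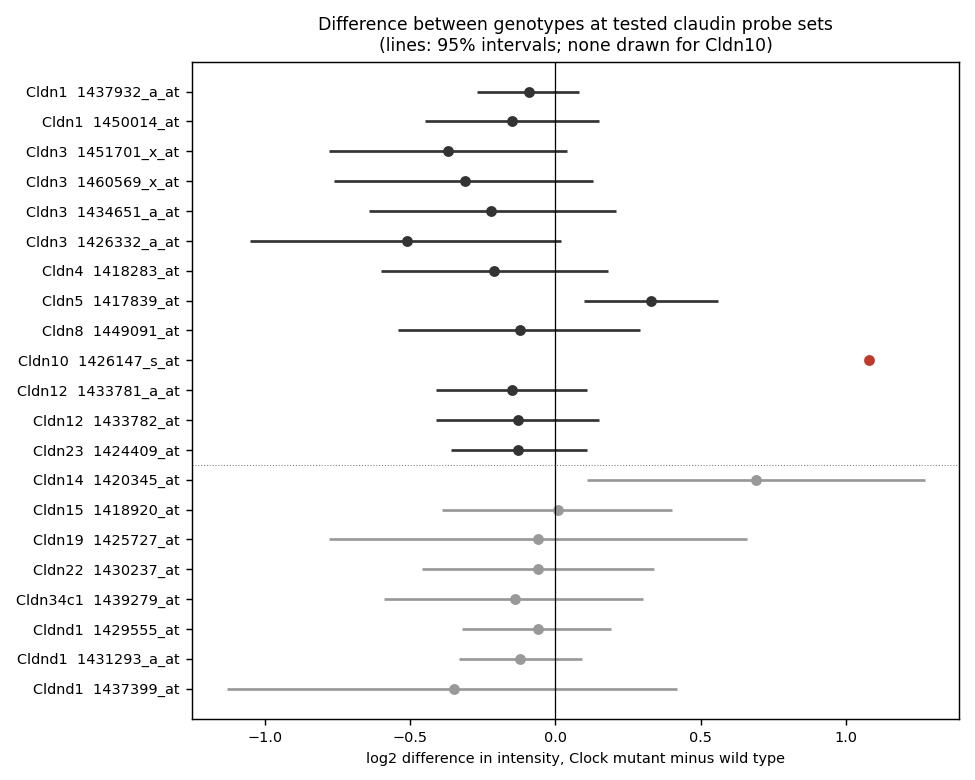
Log2 difference in intensity between *Clock* mutant and wild-type skin (horizontal axis) at the 13 tested probe sets of the claudin members (red and black) and the 8 tested probe sets of other claudin and claudin-domain genes (grey); lines are 95% intervals, and none is drawn for *Cldn10* (red), whose difference of 1.08 chose the family. Apart from *Cldn10*, the intervals of *Cldn5* and *Cldn14* lie to the right of 0 and all others include it.

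The negative differences were larger in 1 mutant mouse than in the other. Of the 12 tested probe sets besides that of *Cldn10*, 11 had their lowest value on the array of *Clock* mutant replicate 1, the male, and these were all probe sets of *Cldn1*, *Cldn3*, *Cldn4*, *Cldn8*, *Cldn12* and *Cldn23*. Over all tested probe sets that array was the lowest for 30.2%. The median of those 11 probe sets, relative to the WT mean, was -0.38 on the log2 scale in *Clock* mutant replicate 1 and -0.05 in replicate 2, against 0.06, -0.01 and -0.07 in WT replicates 1, 2 and 3. Thus by this median the second mutant lay within the range of the WT mice, although it was below every WT mouse at 2 *Cldn3* probe sets. Without *Clock* mutant replicate 1, 7 of the 12 differences were negative and 5 positive, with a median of -0.03. Without *Clock* mutant replicate 2, 11 were negative, with a median of -0.37. With all arrays the median was -0.15, against -0.02 over all tested probe sets. *Clock* mutant replicate 1 also had the lowest array median, 106.0, against 114.4 to 118.1 on the other arrays. With all array medians made equal, the claudin median was -0.06, against 0.07 over all tested probe sets, and 11 of the 12 differences stayed negative. The probe sets of 1 gene and the values of 1 array are not independent, and no test was made of this pattern.

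All 9 measured genes of the growing hair had their highest intensity on that array. The summed intensity of 9 hair root sheath and shaft markers was 8144 and 1532 in *Clock* mutant replicates 1 and 2, against 1540, 584 and 634 in WT replicates 1, 2 and 3. By the median over these genes, both mutants stood above every WT mouse, at 3.09 and 1.00 relative to the WT mean in *Clock* mutant skin, against 0.78, -0.33 and -0.43 in WT skin. Of the 9 genes, 6 (*Krt28*, *Krt73*, *Tchh*, *Krt31*, *Krt34* and *Krt35*) were higher in both mutants without overlap, against 12.8% of all tested probe sets. Of these, *Krt34* and *Krt35* lay under the intensity limit. All 7 tested had a positive difference, with a median of 2.03, and 0 passed. *Tchh*, trichohyalin of the inner root sheath, was at 1225 and 314.8 in *Clock* mutant skin, against 280.3, 147.3 and 154.7 in WT skin. *Krt25*, an inner root sheath keratin, was at 1932 and 226.8 in *Clock* mutant skin, against 282.9, 34.3 and 56.0 in WT skin, and overlapped. Markers of the epidermis varied less, and the brightest genes carry their sums. The 6 basal markers summed to 57247 and 60133 in *Clock* mutant skin, against 54680 to 59236 in WT skin, and the 8 suprabasal markers to 103340 and 105477 in *Clock* mutant skin, against 99598 to 108625 in WT skin. Single genes differed from the sums, and *Clock* mutant replicate 1 was the lowest array for 2 of the basal genes (*Krt15* and *Itgb4*) and 4 of the suprabasal genes (*Lor*, *Flg*, *Ivl* and *Krtdap*). *Flg*, filaggrin, was at 1427 and 1555 in *Clock* mutant skin, against 1730, 1880 and 1747 in WT skin, without overlap. *Itgb4*, an integrin of basal cells, was at 796.2 and 1060.0 in *Clock* mutant skin, against 1113, 998.1 and 894.2 in WT skin. Both sums overlapped between genotypes, and 0 of 14 genes passed. In its staging of *Bmal1* mice, the paper noted slightly more advanced hair cycling in males. With 1 male, sex and hair stage cannot be told apart here. The part of sex, hair stage and cell content in the low claudin values of this mouse was not tested.

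**Figure D3:**
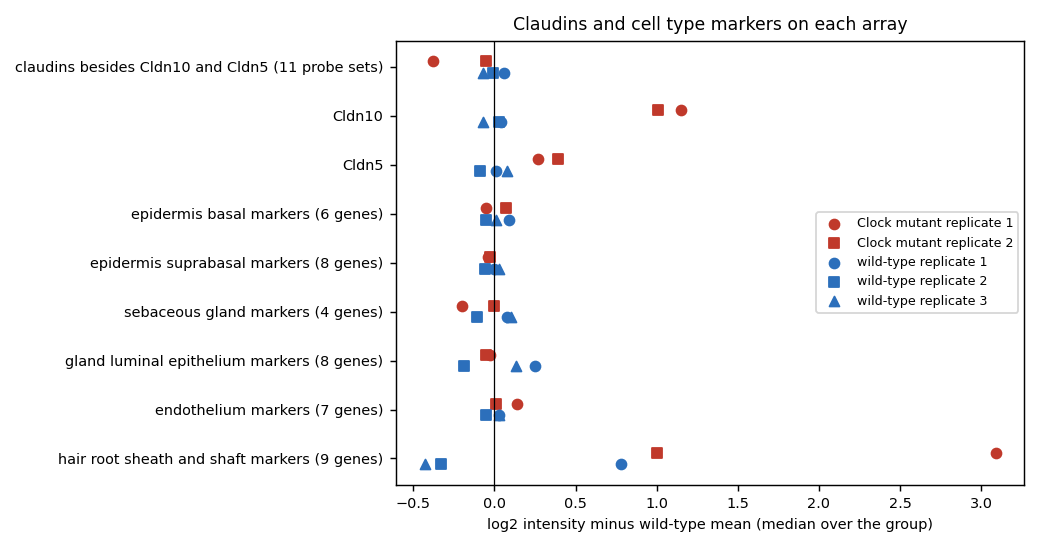
Log2 intensity minus the wild-type mean (horizontal axis), as the median over each group of genes named at left, for the 2 *Clock* mutant arrays (red) and the 3 wild-type arrays (blue). The 11 claudin probe sets besides *Cldn10* and *Cldn5* lie at -0.38 in *Clock* mutant replicate 1, the array with the highest hair root sheath and shaft markers, while the epidermal markers of the 5 arrays lie together near 0.

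Outside the members, the table named a further 16 claudin and claudin-domain genes in 22 probe sets, of which 8 probe sets in 6 genes were bright enough to test. Of these, 0 passed, against 0.0888% of all tested probe sets. *Cldn14*, a claudin of the inner ear and kidney, had intensities of 115.0 and 97.8 in *Clock* mutant skin, against 60.1, 60.5 and 77.9 in WT skin. The groups did not overlap, and the log2 difference of 0.69 (95% interval 0.11 to 1.27, adjusted p = 0.395 with limma) was taken close to the intensity limit. *Cldnd1*, a claudin-domain gene, was at -0.12 at its brightest probe set (95% interval -0.33 to 0.09). *Cldn2*, *Cldn6*, *Cldn9*, *Cldn13*, *Cldn16* and *Cldn18* were among those under the limit.

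The cytoplasmic and membrane partners of claudins did not pass either. Of 18 tested tight junction partner genes 0 passed in either direction, against 0.0888% of all tested probe sets. There were 7 positive and 11 negative differences, with a median of -0.02, against 0.02 over 12955 genes at their brightest probe set. An unadjusted p under 0.05 with limma was found for 4 of the 18, all lower in *Clock* mutant skin, against 2918 of all 27022 tested probe sets. *Amotl2*, a scaffold protein of the angiomotin family, had intensities of 2415 and 2351 in *Clock* mutant skin, against 2674, 3334 and 3162 in WT skin (log2 difference -0.35, 95% interval -0.59 to -0.12, adjusted p = 0.315 with limma). *Jam2*, a junctional adhesion molecule of endothelium, had 369.7 and 303.5 in *Clock* mutant skin, against 439.8, 434.9 and 431.5 in WT skin (adjusted p = 0.384 with limma). Both genes were lower without overlap of the groups, and neither passed. *Ocln*, occludin, which lies in the same strands as claudins, was at 775.4 and 1004 in *Clock* mutant skin, against 1060, 1065 and 1034 in WT skin, again with *Clock* mutant replicate 1 as the lowest. *Tjp1*, which encodes the scaffold ZO-1 that anchors claudins to actin, overlapped between genotypes, with a difference of -0.04 (95% interval -0.21 to 0.14).

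The other cell junctions of the epidermis were also without calls. Over all tested probe sets only 0.0888% passed, so nothing is read from counts of 0 in lists of this size. The median over all genes at their brightest probe set was 0.02. Of 12 adherens junction genes 0 passed in either direction, with a median of -0.03. The smallest p were those of *Nectin1*, an adhesion protein (-0.48, adjusted p = 0.409 with limma), and *Cdh3*, P-cadherin (-0.25, adjusted p = 0.568 with limma). Of 13 desmosome genes 0 passed in either direction, with a median of -0.01, among them *Dsp*, desmoplakin (-0.12), and *Dsg2*, a desmosomal cadherin (-0.18). Of 16 genes known to regulate claudins or their junctions, 0 passed, with a median of -0.08. *Snai2*, a repressor of epithelial junction genes, had the smallest p of them, with 2065 and 1993 in *Clock* mutant skin, against 1682, 1432 and 1570 in WT skin (log2 difference 0.38, 95% interval 0.16 to 0.60, adjusted p = 0.266 with limma). The suffix of this *Snai2* probe set marks probes that can bind unrelated transcripts. *Esrp2*, a splicing factor of epithelial cells, had a difference of 0.20 (adjusted p = 0.47 with limma).

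**Figure D4:**
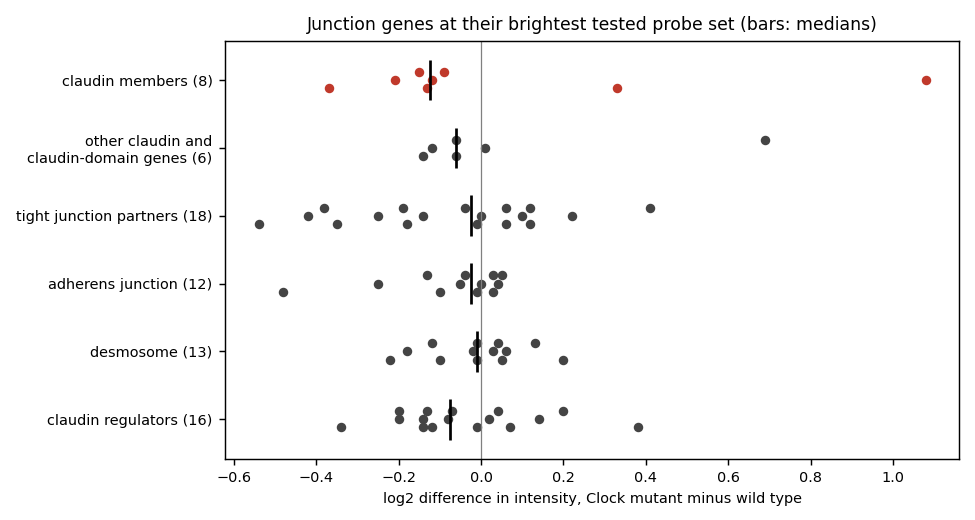
Log2 difference in intensity between *Clock* mutant and wild-type skin (horizontal axis) of each gene at its brightest tested probe set, for the claudin members (red) and the lists named at left, with the number of genes in brackets; bars are medians. The medians of the other lists lie between -0.08 and -0.01, and *Cldn10*, at 1.08, is the rightmost point.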

How the data were processed

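The values were MAS5 signal intensities deposited by the authors, on a linear scale, 1 per probe set for each of 5 Affymetrix mouse arrays. The MAS5 version, detection calls and scanner settings are not given in the sources used here. Each array had a 2% trimmed mean of 500.0. MAS5 subtracts mismatch signal, which makes dim values noisy, and precision is limited by how few arrays there are. Groups came from the labels, which call the mice biological replicates.

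Log2 intensities were used after a floor of 1. The dimmest 40% of probe sets by mean log2 value (18015) were not tested. The other 27022 entered a two-sided limma 3.58.1 fit in R 4.3.3 (lmFit, then eBayes with trend), and p-values were adjusted over all of these by Benjamini-Hochberg. The fit was tested on simulated data with known changes and independent normal values, a setting that does not cover the dependence of the calls on single arrays. A gene named from a list stands for its brightest tested probe set, and of each list the 2 genes with the smallest p are named, with the 5 genes nearest to *Cldn10* in profile. *Ocln* and *Tjp1* were named after their values were seen, as were the single marker genes of other cell types. Promoter sequences came from RefSeq, GRCm38.p6. The members, lists and tests were chosen with earlier results of these data known. The alternatives are those named in the closing section.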

Additional observations from a re-analysis of the deposited data

How the results depend on the processing

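Over all tested probe sets, limma called 24. The count was 10 with no filter, 113 with a Cyber-T style test and 106 with the replicate number as a block, and it was 0 without an intensity trend (2631 at an unadjusted p under 0.05). Leaving out each array gave 0 to 239 calls, with 0 without WT replicate 2 (1570 at an unadjusted p under 0.05) or WT replicate 3 (2193). The claudin count was 1 with all arrays, 0 without a trend and 0 to 1 with an array left out, and 1 with the replicate block. The deviations of same-numbered mice from the group means correlated at 0.01 and 0.10 over tested probe sets. With 2 mutant mice these deviations mirror each other, so the values cannot decide whether same-numbered mice belong together. Of 120 differences of claudin members under an alternative, 116 kept their sign, and the 4 that did not were a *Cldn1*, a *Cldn3*, the *Cldn8* and the *Cldn23* probe set without *Clock* mutant replicate 1. A total of 16 moved by more than the spread between replicates. With 2 mutant mice, differences the size of most claudin values could not be told from 0, and the low intensities of *Cldn7* and *Cldn11* allow no comparison. The cause of these changes was not tested.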
